A study of Mus musculus with 15 samples.

Results

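The G1 cyclins, their kinases and the CDK inhibitors were followed in mouse CD8 T cells from rest through 22 h of antigen stimulation. The members were Ccnd1, Ccnd2, Ccnd3, Cdk4, Cdk6, Ccne1, Ccne2, Cdkn1a, Cdkn1b and Cdkn2c, taken by gene symbol from the count tables as 10 of the 17493 genes listed. Bulk CEL-seq, an RNA-seq method that counts reads near the 3′ end of polyadenylated transcripts, had been run on 15 libraries in 5 groups of 3. All groups held CD8+ OT-I T cells, whose transgenic T cell receptor recognises a peptide of ovalbumin. They came from the spleen and lymph nodes of females of strain C57BL/6-Tg(TcraTcrb)1100Mjb; ages were not given. Unstimulated cells were taken at 0 h. The IF groups had been kept for 8 h or 22 h with immunofilaments, synthetic filaments carrying IL-2 and SIITFEKL-loaded MHC, at 5 ng/ml. The DC groups had been kept for 8 h or 22 h with 20000 Flt-3Ligand dendritic cells per well, pulsed with the SIITFEKL peptide. Stimulated wells held 50000 T cells, and viable CD8+ CD103- cells were sorted before lysis. The study set both stimuli against the unstimulated time point. The titles tag the libraries of each group Don1, Don2 and Don3, called replicates 1 to 3 here, and do not say what the tag stands for or that these came from separate animals, so p-values measure the spread between these samples, which may be technical.

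D-type cyclins are made when a resting T cell receives antigen and cytokine signals; they bind CDK4 or CDK6 and start the phosphorylation of the retinoblastoma protein. E-type cyclins then activate CDK2 and carry the cell into S phase, and their genes are targets of the E2F factors that retinoblastoma protein holds back. Among the inhibitors, the CIP/KIP proteins p21 (Cdkn1a) and p27 (Cdkn1b) bind cyclin-CDK complexes, while the INK4 protein p18 (Cdkn2c) binds CDK4 and CDK6.

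Members that passed a test were the inhibitors Cdkn1a and Cdkn2c, the D cyclins Ccnd1 and Ccnd3, and Ccne1. The only call of Ccnd1 was lost in 7 of 11 alternative settings, and that of Ccne1 in 6 of 12. With dendritic cells at 8 h, Cdkn1a rose 30.0-fold over unstimulated cells (16.4-fold without DC 8 h replicate 2, 48.7-fold without unstimulated replicate 3) and Cdkn2c fell 2.48-fold. With immunofilaments at 8 h, Cdkn1a rose 4.29-fold (6.86-fold without unstimulated replicate 3, and a call lost in 5 of 12 alternative settings) and Ccnd3 fell 1.96-fold, and Ccnd1 had no read in any library. The transcripts of Ccnd2, Cdk4, Cdk6 and Cdkn1b did not pass the test in any of the 9 comparisons, at an adjusted p below 0.05 in edgeR's quasi-likelihood test over 10831 genes. All members but Ccne2 were tested, 9 of 10; Ccne2, with 32 reads in all, did not pass the low-count filter.

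Read totals ran from 2892874 to 19806730 per library, so that 1 read was worth 0.0510 to 0.332 CPM, the read count scaled to library size and trimmed-mean factors. Mitochondrial ribosomal RNA made up 0.146% and 0.179% of the counts in 2 IF 22 h libraries, replicates 3 and 2, against 1.82% to 4.49% elsewhere. A fit without these 2 libraries is given beside several, but not all, of the IF 22 h results below. That fit leaves 1 library in IF 22 h, which is assumed to vary like the other groups. It called 0 members in any comparison with IF 22 h, which says nothing about stability at that size, so its log2 differences are the values to compare. All 8 CD8 T cell markers had reads in every group, with a summed level of 10635 to 11528 CPM in unstimulated cells and 4820 to 7471 CPM after stimulation; in each stimulated group 6 to 8 of the 8 passed lower than at rest. The 16 dendritic cell markers summed to 768 to 1126 CPM in the DC 8 h libraries and 391 to 586 CPM in the DC 22 h libraries. The unstimulated libraries, with Ccl17 and Zbtb46 at 0, summed to 534 to 1275 CPM. Immunofilament libraries summed to 149 to 392 CPM at 8 h, with Zbtb46 and Batf3 at 0, and to 325 to 544 CPM at 22 h. Fscn1, a gene of mature dendritic cells, held 168, 132 and 126 CPM at DC 8 h and at most 6.75 CPM in unstimulated libraries. At 22 h it held 94.8, 87.6 and 72.9 CPM with dendritic cells and 5.83, 21.5 and 43.8 CPM with immunofilaments, and passed higher than rest in both. Between DC 8 h and rest 2 of 13 tested dendritic cell markers passed higher and 0 lower, and between IF 8 h and rest 1 passed higher and 5 lower. At 22 h, 2 passed higher than at rest with each stimulus, Fscn1 and Ccl22, and 3 lower. The lower ones were Itgax, Xcr1 and H2-Ab1 with dendritic cells and Xcr1, Itgae and Ciita with immunofilaments. Mean Itgax was 14.5 CPM at rest, 5.32 CPM at DC 8 h and 3.95 CPM at DC 22 h. In the same order Xcr1 was at 24.1, 2.86 and 0.198 CPM and H2-Ab1 at 228, 107 and 74.3 CPM. The 4 NK cell markers summed to 585 to 720 CPM at rest, 338 to 465 CPM at IF 8 h, 255 to 545 CPM at DC 8 h, 540 to 663 CPM at IF 22 h and 277 to 463 CPM at DC 22 h. Nearly all of this was Eomes and Nkg7, which CD8 T cells also express; Ncr1 was at most 4.88 CPM, and 0 in every IF 8 h, DC 8 h and DC 22 h library. Against rest, Eomes passed higher at IF 8 h (log2 1.93), DC 8 h (1.13) and IF 22 h (1.99), and Nkg7 passed lower at IF 8 h (-2.07), DC 8 h (-1.39) and DC 22 h (-1.10). The part of dendritic cell or NK cell RNA in the differences below was not tested. In bulk RNA, fewer cells of a type and less RNA per cell cannot be told apart.

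**Figure D1:**
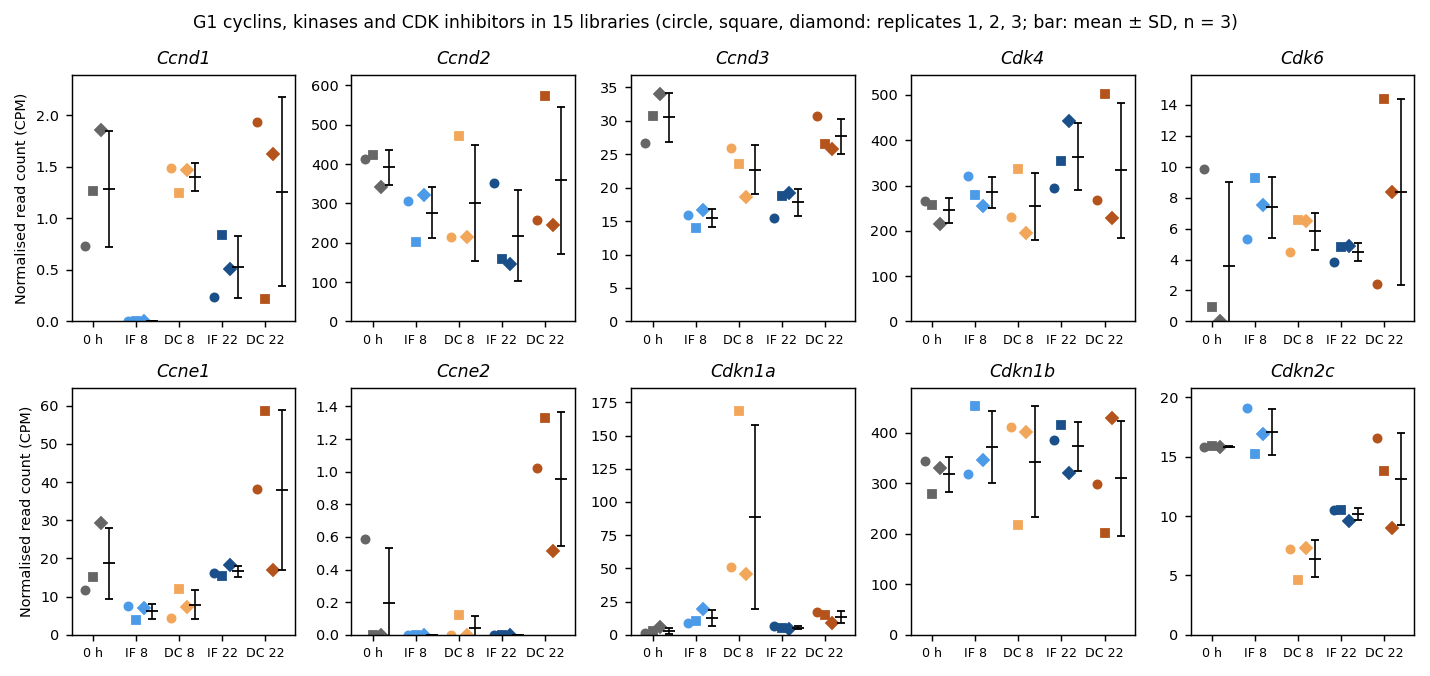
Normalised read count (CPM, linear axis from 0) of each of the 10 genes in each of the 15 libraries, by group (0 h, unstimulated; IF and DC at 8 h and 22 h); points are libraries, with the shape giving the replicate, and bars are the mean ± SD (n = 3). The 3 DC 8 h libraries stand above all others for Cdkn1a, with replicate 2 at 169 CPM, and the 3 IF 8 h libraries sit at 0 for Ccnd1.

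Among the D cyclins, Ccnd3, one of the cyclins that lymphocytes use to leave G1, was lower with immunofilaments. Unstimulated libraries held 26.7, 30.7 and 34.0 CPM of Ccnd3, and IF 8 h libraries 15.9, 13.9 and 16.6 CPM. At IF 22 h the values were 15.5, 18.8 and 19.2 CPM. Every library of both IF groups lay below every unstimulated library. The DC libraries lay nearer to rest, at 25.9, 23.5 and 18.6 CPM at 8 h and 30.6, 26.5 and 25.8 CPM at 22 h. The DC 8 h libraries lay just below rest, and the DC 22 h range overlapped it. Ccnd3 fell by 0.97 on the log2 scale from rest to IF 8 h (SE 0.21, edgeR adjusted p = 0.00944), and this passed in 12 of 12 alternative settings. Between rest and IF 22 h it fell by 0.77 (SE 0.20, edgeR adjusted p = 0.0306), a call lost in 8 of 13 settings. Without the IF 22 h replicates 2 and 3 the log2 difference was -0.97 with an adjusted p of 0.225. Leaving out a single library ended that call for unstimulated replicates 2 (0.0921) and 3 (0.115) and for IF 22 h replicates 1 (0.0788), 2 (0.0865) and 3 (0.0856); scaling by library size alone gave an adjusted p of 0.0862 and no low-count filter gave 0.105. In the DC groups Ccnd3 did not pass against rest in edgeR, with log2 differences of -0.42 at 8 h (95% interval -0.84 to 0.00, adjusted p = 0.240) and -0.14 at 22 h (-0.56 to 0.28, adjusted p = 0.740).

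The difference between stimuli in Ccnd3 was tested directly and did not pass. The IF minus DC log2 difference was -0.55 at 8 h (SE 0.21, edgeR adjusted p = 0.414) and -0.63 at 22 h (SE 0.20, edgeR adjusted p = 0.113). The 22 h difference without IF 22 h replicates 2 and 3 was -0.84 (edgeR adjusted p = 0.733). All 3 IF libraries lay below all 3 DC libraries at both times. The 22 h difference passed in DESeq2 (adjusted p = 0.0317) and with library size scaling (adjusted p = 0.0478).

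Ccnd3 lies on the plus strand at chr17:47505051-47599691 (GRCm38), and 361 of its exonic bases overlap exons of Bysl on the other strand. The strand used in counting is not given in the sources used here, so reads of the pair cannot be told apart there. Its upstream RefSeq start (GRCm38.p6, window chr17:47504801-47505100, plus strand, 250 bases before to 50 after the start) is shown because Ccnd3 passed at both IF times. The capitals mark TGTTTAC, which reads GTAAACA, a forkhead motif, on the other strand.
Ccnd3: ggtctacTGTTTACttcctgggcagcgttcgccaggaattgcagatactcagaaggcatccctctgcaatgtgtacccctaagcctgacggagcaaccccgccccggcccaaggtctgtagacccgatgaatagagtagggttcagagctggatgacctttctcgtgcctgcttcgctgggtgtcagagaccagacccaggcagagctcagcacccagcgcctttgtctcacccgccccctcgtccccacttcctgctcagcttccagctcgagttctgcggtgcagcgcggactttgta
This motif, at -243 from the start, is found in 3.65% of the 32851 promoter windows of the same length. It was not found at a start of Ccnd3 other than this one. Other motifs searched on both strands were the E2F motif in 4 spellings (TTTCCCGC, TTTCGCGC, TTTGCCGC and TTTGGCGC, 2.26% of windows), the STAT motif TTCNNNGAA (8.3%) and the AP-1 motif TGANTCA (7.81%). None of these 3 was present in the windows of the 7 members that the promoter table holds. The E-box CACGTG (7.15%) and a p53 half-site (8.36%) are described with Cdk4 and Cdkn1a.

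Ccnd1, at chr7:144929931-144939925 on the minus strand, encodes a D cyclin known mainly from epithelial and mesenchymal cells, and it was near the limit of detection. Unstimulated libraries had 5, 7 and 8 reads, DC 8 h libraries 15, 10 and 10, IF 22 h libraries 2, 7 and 10, and DC 22 h libraries 17, 2 and 19. The 3 IF 8 h libraries had 0 reads. Set against a floor of 3 reads over that group, Ccnd1 was 4.95-fold lower at IF 8 h than at rest (edgeR adjusted p = 0.0410). Folds against this floor leave out the counting error of the higher group, so they are not lower bounds. The call was lost on leaving out any of the 6 libraries compared, with adjusted p from 0.0581 to 0.117. By the same floor, DC 8 h was 5.77-fold higher than IF 8 h without passing (edgeR adjusted p = 0.139), and DESeq2 gave 0.0470. IF 22 h was at least 2.15-fold higher than IF 8 h, also without passing (edgeR adjusted p = 0.211). Exons of LTO1 overlap 1100 of its bases on the other strand.

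Ccnd2, at chr6:127125162-127152193 on the minus strand, encodes the D cyclin that cytokine signals raise in lymphocytes. Its levels were 413, 422 and 341 CPM at rest, 306, 203 and 321 CPM at IF 8 h, and 215, 472 and 215 CPM at DC 8 h. At 22 h they were 351, 158 and 146 CPM with immunofilaments and 257, 574 and 245 CPM with dendritic cells. Spread within groups was wide, and in both DC groups replicate 2 was highest, at 2.19 times the group median at 8 h and 2.23 times at 22 h. All 3 IF 8 h libraries lay below the unstimulated ones, but no comparison passed. The IF 22 h log2 difference from rest was -0.85 (95% interval -1.66 to -0.03, edgeR adjusted p = 0.221). It passed without IF 22 h replicate 1 (-1.37, adjusted p = 0.0352), which leaves the 2 libraries low in mitochondrial ribosomal RNA, and without the low-count filter (-0.83, 0.00348). Without those 2 libraries it was -0.16 (edgeR adjusted p = 0.965). The IF minus DC difference at 22 h was -0.72 (edgeR adjusted p = 0.397) and passed without the low-count filter (0.0246); without the 2 libraries it was -0.03 (adjusted p = 1). Antisense gene models overlap 368 and 372 exonic bases of Ccnd2.

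Cdk4, the kinase partner of the D cyclins, lies on the plus strand at chr10:127063534-127067920 and shares 641 exonic bases with Tspan31 on the other strand. Libraries held 265, 258 and 214 CPM at rest, 322, 280 and 255 CPM at IF 8 h, and 230, 336 and 195 CPM at DC 8 h. At 22 h the values were 295, 354 and 443 CPM with immunofilaments and 269, 503 and 228 CPM with dendritic cells. The IF 22 h libraries all lay above rest, whereas the other 3 groups overlapped it. That difference, 0.57 on the log2 scale (SE 0.26, 95% interval 0.01 to 1.12, edgeR adjusted p = 0.234), did not pass. Without IF 22 h replicates 2 and 3 it was 0.26 (adjusted p = 0.879). IF and DC differed by 0.17 at 8 h (95% interval -0.39 to 0.73) and 0.13 at 22 h (-0.43 to 0.68), neither past the threshold. The 22 h difference turned to -0.18 (edgeR adjusted p = 0.989) without IF 22 h replicates 2 and 3. The RefSeq promoter window of Cdk4 (chr10:127063285-127063584, plus strand, GRCm38.p6) is shown for its E-boxes, the sequence that MYC-family factors bind, in capitals.
Cdk4: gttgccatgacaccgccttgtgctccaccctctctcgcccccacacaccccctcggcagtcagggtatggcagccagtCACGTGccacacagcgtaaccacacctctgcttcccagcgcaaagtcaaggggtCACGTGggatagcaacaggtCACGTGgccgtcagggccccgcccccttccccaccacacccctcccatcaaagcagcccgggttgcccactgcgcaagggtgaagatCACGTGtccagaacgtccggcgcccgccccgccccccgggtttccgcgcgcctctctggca
The 4 copies of CACGTG begin at -172, -118, -98 and -11 from the start. Of the 32851 windows, 8 (0.0244%) hold 4 or more. As 4 is the count in Cdk4 itself, this share is not a test. Single copies lie in the windows of Cdk6 (at -220) and of 1 start of Cdkn2c (at 34).

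Cdk6, the second D cyclin kinase, at chr5:3341485-3531008 on the plus strand, was unevenly detected at rest; an antisense gene model overlaps 368 of its exonic bases. The unstimulated libraries had 67, 5 and 0 reads, or 9.84, 0.904 and 0 CPM. Levels were 5.35, 9.28 and 7.50 CPM at IF 8 h, 4.46, 6.58 and 6.46 CPM at DC 8 h, and 3.81, 4.78 and 4.90 CPM at IF 22 h. DC 22 h libraries held 2.39, 14.4 and 8.37 CPM. Unstimulated replicate 1 lay above every stimulated library but DC 22 h replicate 2, and the other 2 unstimulated libraries lay below all stimulated ones. No comparison passed in the full set. Leaving out unstimulated replicate 1 gave log2 differences from rest of 3.84 at IF 8 h (edgeR adjusted p = 0.0245), 3.53 at DC 8 h (0.0360) and 4.06 at DC 22 h (0.0144), and 3.15 at IF 22 h, which did not pass (0.0612). The resting mean of Cdk6 thus rested on 1 library.

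Ccne1, cyclin E1, at chr7:38097984-38107534 on the minus strand with no exonic overlap, had low values at 8 h and higher ones at 22 h. Unstimulated libraries held 11.6, 15.2 and 29.3 CPM. At 8 h the values were 7.49, 3.98 and 6.97 CPM with immunofilaments and 4.46, 11.9 and 7.34 CPM with dendritic cells. At 22 h they were 16.2, 15.4 and 18.2 CPM with immunofilaments and 38.1, 58.7 and 16.8 CPM with dendritic cells. With either stimulus, all 3 libraries of 22 h lay above all 3 of 8 h. With dendritic cells Ccne1 rose 4.80-fold from 8 h to 22 h (log2 2.26, SE 0.45, edgeR adjusted p = 0.0283). That call was lost when the fit held these 2 groups alone (0.249). It was also lost without DC 8 h replicates 1 (0.184), 2 (0.0578) or 3 (0.147), and without DC 22 h replicates 1 (0.0924) or 2 (0.109). With immunofilaments the log2 difference was 1.41 (SE 0.47, edgeR adjusted p = 0.170), passing without the low-count filter (0.00493). It was 1.37 (adjusted p = 0.895) without IF 22 h replicates 2 and 3.

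Against rest, Ccne1 did not pass at any time in the full fit. The log2 difference was -1.56 at IF 8 h (SE 0.48, edgeR adjusted p = 0.0549) and -1.23 at DC 8 h (SE 0.45, adjusted p = 0.116). The IF 8 h libraries all lay below rest, and that difference passed in DESeq2 (adjusted p = 0.0148) and in a fit of the 2 groups alone (0.0250). Without the low-count filter both 8 h differences passed (0.000684 for IF and 0.00802 for DC). At DC 22 h it was 1.03 (SE 0.43, edgeR adjusted p = 0.166), and without DC 22 h replicate 3 it was 1.39 (adjusted p = 0.0398). It also passed without the filter (0.0248) and with library size scaling (1.37, 0.0475). The IF minus DC difference at 22 h was -1.18 (SE 0.43, edgeR adjusted p = 0.173), with DC 22 h replicate 3, at 16.8 CPM, inside the IF range; it passed without the filter (0.00998). Without IF 22 h replicates 2 and 3 it was -1.22 (adjusted p = 0.9748).

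Ccne2, cyclin E2, at chr4:11191351-11204779 on the plus strand, was seen in 5 of 15 libraries. The DC 22 h libraries had 9, 12 and 6 reads, unstimulated replicate 1 had 4 and DC 8 h replicate 2 had 1. The other 10 libraries, both IF groups among them, had 0. DC 22 h was 11.1-fold higher than IF 22 h set at a floor of 3 reads over that group, with the counting error of DC 22 h left out. Its ratio to DC 8 h was 22.8 (exact 95% counting interval 3.76 to 934) and to rest 3.80 (1.33 to 14.96); these cover counting error only. In a fit without the low-count filter the IF to DC difference at 22 h had an edgeR adjusted p of 0.140. In that fit DC 22 h had an edgeR adjusted p of 0.684 against DC 8 h and 0.661 against rest. Of its exonic bases, 609 overlap Ints8 on the other strand.

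Cdkn1a encodes p21, the inhibitor best known as a p53 target, and lies on the plus strand at chr17:29090976-29100727. Unstimulated libraries held 1.03, 2.71 and 5.59 CPM. DC 8 h libraries held 51.1, 169 and 46.1 CPM, and IF 8 h libraries 8.56, 10.3 and 19.3 CPM. Both 8 h groups stood above rest without overlap, and the DC group stood above the IF group. At 22 h the values were lower, at 17.4, 14.9 and 8.55 CPM with dendritic cells and 6.43, 5.14 and 4.13 CPM with immunofilaments. The 22 h groups did not overlap each other, and IF 22 h overlapped rest. DC 8 h replicate 2, which had the highest Cdkn1a, had 132 CPM of Fscn1 and 14.4 CPM of Ccl22, dendritic cell markers that lay higher in replicate 1 (168 and 18.2 CPM) and lower in replicate 3 (126 and 10.3 CPM). Its sum over the 16 markers was the lowest of the group (768 CPM). That sum includes H2-Ab1, H2-Aa, H2-Eb1 and Cd74, with group means of 107, 223, 272 and 118 CPM at DC 8 h. Unstimulated cells held 228, 187, 197 and 95.7 CPM of them, so the sum does not track dendritic cell RNA alone. The part of dendritic cell RNA in Cdkn1a was not tested.

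From rest to DC 8 h, Cdkn1a rose by 4.91 on the log2 scale (SE 0.61, edgeR adjusted p = 0.000130), passing in 12 of 12 alternative settings. The fold moved with single libraries, from 30.0 to 16.4 without DC 8 h replicate 2 (log2 4.03, adjusted p = 0.000260) and to 48.7 without unstimulated replicate 3 (log2 5.61, adjusted p = 0.000398). At IF 8 h it rose by 2.10 over rest (SE 0.60, edgeR adjusted p = 0.0434). Without unstimulated replicate 3 the rise was 2.78 at IF 8 h (adjusted p = 0.0350) and 2.90 at DC 22 h (adjusted p = 0.0241). The IF 8 h call was lost without IF 8 h replicates 1 (0.0589), 2 (0.0659) or 3 (0.172) and without unstimulated replicates 1 (0.162) or 2 (0.134). At DC 22 h it rose by 2.20 over rest, or 4.61-fold (SE 0.58, edgeR adjusted p = 0.0283). The DC 22 h call was lost in a fit of the 2 groups alone (0.0516), without DC 22 h replicates 1 (0.0848) or 2 (0.0613), and without unstimulated replicates 1 (0.122) or 2 (0.104). IF 22 h differed from rest by 0.81 (95% interval -0.45 to 2.08, adjusted p = 0.488), which did not pass; without IF 22 h replicates 2 and 3 it was 1.13 (adjusted p = 0.701).

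The stimuli differed in Cdkn1a at 8 h, where it was 7.01-fold lower with immunofilaments than with dendritic cells (log2 -2.81, SE 0.53, edgeR adjusted p = 0.0187). Without DC 8 h replicate 2 the log2 difference was -1.94 (adjusted p = 0.104), and the call was also lost without IF 8 h replicates 1 (0.111) or 2 (0.118). At 22 h the difference was -1.39 (SE 0.52, edgeR adjusted p = 0.192). It passed without the low-count filter (0.00116), and without IF 22 h replicates 2 and 3 it was -1.08 (adjusted p = 0.9748). With dendritic cells Cdkn1a fell 6.52-fold from 8 h to 22 h (log2 -2.70, SE 0.51, edgeR adjusted p = 0.0268). This was lost in a fit of the 2 groups alone (0.222), without DC 8 h replicates 1 (0.0525) or 2 (0.118, with a log2 difference of -1.84), and without DC 22 h replicates 1 (0.0710) or 2 (0.0773). With immunofilaments the time difference was -1.29 (SE 0.54, edgeR adjusted p = 0.273), passing without the low-count filter (0.00962). With IF 22 h replicate 1 alone at that time it was -0.97 (adjusted p = 0.911). The interaction, the IF time difference minus the DC one, was 1.42 (95% interval -0.12 to 2.96, adjusted p = 0.645).

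The window at the upstream RefSeq start of Cdkn1a (chr17:29090729-29091028, plus strand, GRCm38.p6) is shown because Cdkn1a had the largest fold among called members with reads in both groups. The capitals mark matches to the p53 half-site, a motif added to the search after this window had been read.
Cdkn1a: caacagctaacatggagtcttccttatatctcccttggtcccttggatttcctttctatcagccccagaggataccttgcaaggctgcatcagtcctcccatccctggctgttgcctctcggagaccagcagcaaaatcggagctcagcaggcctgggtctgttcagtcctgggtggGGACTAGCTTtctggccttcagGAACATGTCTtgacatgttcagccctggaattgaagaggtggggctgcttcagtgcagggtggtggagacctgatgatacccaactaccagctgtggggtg
The matches begin at -73 and -51 from the start, and 8.36% of all windows hold at least 1. No match was found at a start of Cdkn1a other than this one. Trp53, which encodes p53, had a mean of 323 CPM ± 28.1 (SD, n = 3) at rest and 396 CPM ± 106 at DC 8 h (log2 difference 0.29, edgeR adjusted p = 0.448). Mdm2, a p53 target that encodes its ligase, had 27.9 CPM ± 2.44 at rest and 39.2 CPM ± 4.97 at DC 8 h (log2 difference 0.49, edgeR adjusted p = 0.177). Neither passed in any comparison, and both were named after their values were seen. An unclassified gene model overlaps 273 exonic bases of Cdkn1a on the other strand.

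Cdkn2c encodes p18, the INK4 inhibitor of CDK4 and CDK6, at chr4:109660876-109667189 on the minus strand, with no exonic overlap. The unstimulated libraries held 15.9, 15.9 and 15.8 CPM, and IF 8 h libraries 19.1, 15.3 and 16.9 CPM. DC 8 h libraries held 7.23, 4.60 and 7.34 CPM, below every library of both. At 22 h the levels were 10.5, 10.5 and 9.60 CPM with immunofilaments and 16.6, 13.8 and 8.97 CPM with dendritic cells. The order of the stimuli at 8 h was thus not seen at 22 h, where the ranges overlapped.

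Cdkn2c fell by 1.31 on the log2 scale from rest to DC 8 h (SE 0.27, edgeR adjusted p = 0.00736), in 12 of 12 alternative settings. At IF 8 h its difference from rest was 0.11 (95% interval -0.46 to 0.68, adjusted p = 0.851). It was 2.68-fold higher with immunofilaments than with dendritic cells at 8 h (log2 1.42, SE 0.28, edgeR adjusted p = 0.0231). That call was lost in a fit of the 2 groups alone (0.0955), without IF 8 h replicates 1 (0.0979) or 3 (0.0683), and without DC 8 h replicates 1 (0.0538), 2 (0.108) or 3 (0.0536). From 8 h to 22 h the log2 difference was 1.04 with dendritic cells (SE 0.27, edgeR adjusted p = 0.135) and -0.75 with immunofilaments (SE 0.27, edgeR adjusted p = 0.200). Neither passed in the full fit. The dendritic cell difference passed in DESeq2 (0.0267) and without DC 22 h replicate 3 (1.25, adjusted p = 0.0294). The interaction of -1.78 (SE 0.38) had an edgeR adjusted p of 0.175, against 0.00583 in DESeq2. In edgeR it passed without IF 22 h replicate 1 (-1.80, adjusted p = 0.0287) and not without IF 22 h replicates 2 and 3 (-1.74, adjusted p = 0.99986). At 22 h the differences from rest were -0.64 with immunofilaments (adjusted p = 0.180; -0.60 and 0.698 without replicates 2 and 3) and -0.27 with dendritic cells (adjusted p = 0.581).

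Cdkn1b encodes p27, the inhibitor abundant in resting lymphocytes whose protein is removed by ubiquitin ligases, and lies on the plus strand at chr6:134920401-134925513 with no exonic overlap. Over the 15 libraries it ranged from 202 to 453 CPM. Group means were 317 CPM ± 34.8 (SD, n = 3) at rest. With immunofilaments they were 372 ± 70.9 at 8 h and 373 ± 48.4 at 22 h, and with dendritic cells 343 ± 109 and 310 ± 114. All groups overlapped, and no comparison passed. Log2 differences between groups lay between -0.15 and 0.27, and their 95% intervals lay within -0.70 and 0.82. The transcript count says nothing of p27 protein, which was not measured.

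Read by comparison, members past the threshold were few. From rest to IF 8 h, 3 of 9 tested members passed (Cdkn1a higher, Ccnd3 and Ccnd1 lower), beside 7.76% of all genes tested. From rest to DC 8 h, 2 of 9 passed (Cdkn1a higher, Cdkn2c lower), beside 6.82% of all genes. At IF 22 h it was 1 of 9 (Ccnd3 lower), beside 6.08%, and at DC 22 h 1 of 9 (Cdkn1a higher), beside 7.76%. Beside these backgrounds, 1 of 9 at 22 h is not a result about the members. On leaving out single libraries, 1 to 2 members passed at IF 8 h, 2 to 3 at DC 8 h, 0 to 1 at IF 22 h and 0 to 2 at DC 22 h. Non-overlap of groups was common in the tables. Between rest and IF 8 h, 5 of 9 members did not overlap, beside 30.6% of all genes, and the counts were 3 of 9 (28.2%) for DC 8 h, 3 of 9 (30.4%) for IF 22 h and 1 of 9 (27.1%) for DC 22 h. The median log2 difference of the 9 members was 0.11, 0.05, -0.16 and -0.01 in these comparisons, in the same order, and that of all genes lay between 0.01 and 0.04. These 4 comparisons share the unstimulated libraries. Scaling by library size alone, without trimmed means, moved the median of all genes to 0.26, 0.30, 0.22 and 0.37; changes here are relative to the trimmed-mean scaling. With library size alone, Ccnd3 at IF 8 h and Cdkn1a and Cdkn2c at DC 8 h still passed in the same direction.

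**Figure D2:**
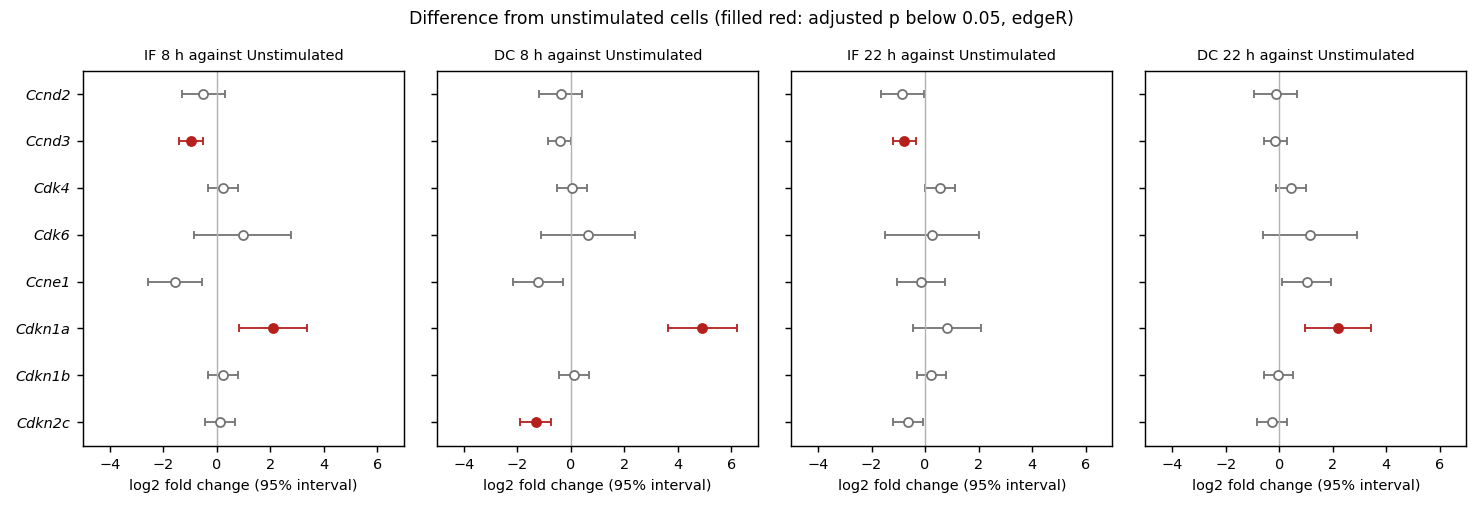
Log2 fold change against unstimulated cells (x axis) of 8 tested members in 4 comparisons, with 95% intervals from edgeR's quasi-likelihood fit; filled red points have an adjusted p below 0.05. Ccnd1 is left out because its IF 8 h group has no read; Cdkn1a at DC 8 h lies farthest from 0, at 4.91.

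The direct comparisons of the stimuli called Cdkn1a and Cdkn2c at 8 h, in opposite directions. They were 2 of 9 members, beside 0.665% of all genes, and 4 of 9 members did not overlap (Ccnd1, Ccnd3, Cdkn1a and Cdkn2c), beside 13.5%. Leaving out single libraries gave 0 to 1 called members at 8 h and 27 to 52 called genes, against 72 in the main fit. At 22 h edgeR called 0 of 9, beside 2.43% of all genes, and 2 of 9 did not overlap (Ccnd3 and Cdkn1a), beside 19.9%; 3 had an unadjusted p below 0.05 (Ccnd3, Cdkn1a and Ccne1), and DESeq2 called 1, Ccnd3. The median log2 difference of the 9 members at 22 h was -0.72, beside -0.02 for all genes. From 8 h to 22 h with dendritic cells, 2 of 9 passed (Ccne1 higher, Cdkn1a lower), beside 0.480% of all genes. Leaving out single libraries gave 0 to 3 members and 1 to 138 genes, against 52, and a fit of the 2 groups alone kept neither call. With immunofilaments 0 of 9 passed, beside 1.12%; 4 had an unadjusted p below 0.05 and DESeq2 called 0. Non-overlap between the times was seen for 3 of 9 members with dendritic cells (13.9% of all genes) and 5 of 9 with immunofilaments (21.5%). The interaction of stimulus and time called 0 of 9 members in edgeR, beside 0% of all genes; 2 had an unadjusted p below 0.05 (Cdkn2c and Ccnd1) and DESeq2 called 1, Cdkn2c. The edgeR count ran from 0 to 1 on leaving out single libraries, Cdkn2c passing without IF 22 h replicate 1.

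**Figure D3:**
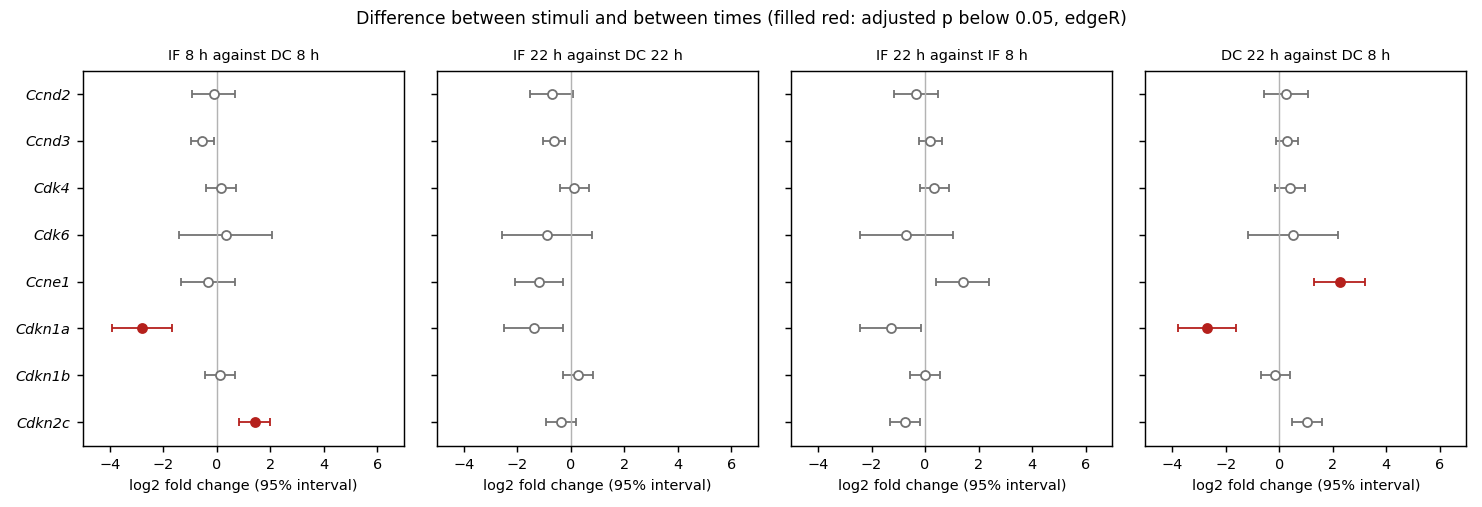
Log2 fold change (x axis) of 8 tested members between stimuli at 8 h and 22 h (IF against DC) and between times within each stimulus (22 h against 8 h), with 95% intervals; filled red points have an edgeR adjusted p below 0.05. At 8 h Cdkn1a lies at -2.81 and Cdkn2c at 1.42; at 22 h no interval belongs to a called member.

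Around the members, 67 genes of the same pathway were listed and 64 were tested. Of 34 calls among them, counted over all comparisons, 5 passed without each of the libraries compared in turn (Foxo1 against rest in both DC groups and in IF 22 h, and Mcm4 at DC 22 h against rest and at IF 22 h against IF 8 h). The other 29 were lost without at least 1 library, with 0 changes of sign. From rest to IF 8 h, 1 passed higher (Cdk7, of the CDK-activating kinase, 0.87) and 4 lower, 7.81% of the pathway genes beside 7.76% of all genes. The 4 were E2f1 (-2.51, edgeR adjusted p = 0.0164) and E2f2 (-1.68), factors that drive S phase genes, Cdkn2d (-1.27), which encodes the INK4 inhibitor p19, and Foxo1 (-0.85), named after its value was seen. E2f1 was at -3.23 without IF 8 h replicate 1 (adjusted p = 0.0282). Its call was lost without IF 8 h replicates 2 (0.0555) or 3 (0.0625) or unstimulated replicate 2 (0.0525), and that of E2f2 without IF 8 h replicate 3 or any single unstimulated library. Without IF 8 h replicate 1 those of Cdkn2d and Foxo1 were lost, that of Cdkn2d also without replicate 2 and that of Foxo1 also without replicate 3, and that of Cdk7 held only without IF 8 h replicate 2. E2f1 had a mean of 10.99 CPM ± 1.48 (SD, n = 3) at rest and 1.75 CPM ± 1.36 at IF 8 h. From rest to DC 8 h, 2 passed higher, Stat5a (1.00), which relays IL-2 signals, and Cdk7 (0.92), and 1 lower, Foxo1 (-1.02), 4.69% beside 6.82% of all genes. The Cdk7 and Stat5a calls were lost without DC 8 h replicate 2 or any single unstimulated library. Shares near or under the background are no result about the pathway; the genes are given for their own values.

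At 22 h the higher calls lay mostly in the origin licensing list, which holds helicase subunits, their loaders, the loading inhibitor geminin (Gmnn) and the sliding clamp (Pcna). Against rest, 3 of its 11 genes passed higher at IF 22 h and 6 of 11 at DC 22 h. Without DC 22 h replicate 2, 1 of those 6 calls passed, Mcm4 (0.97, edgeR adjusted p = 0.0174). The 3 at IF 22 h, the only higher calls among the 64, were helicase subunits, Mcm5 (1.30), Mcm6 (1.13) and Mcm4 (0.94). In the same comparison, where 9.38% of the pathway genes were called beside 6.08% of all genes, 3 passed lower, Cdkn2d (-1.12), Btg1 (-0.998), an antiproliferative factor, and Foxo1 (-0.997). When 1 library was left out, the Mcm and Btg1 calls held only without IF 22 h replicate 1. That leaves the 2 IF 22 h libraries low in mitochondrial ribosomal RNA. Replicate 1 was the lowest of the group for Mcm4, Mcm5 and Mcm6, with 161 CPM of Mcm6 against 205 and 235 CPM. The Cdkn2d call was lost without any of the 6. At DC 22 h, 9 of 64 passed higher and 1 lower, 15.6% beside 7.76% of all genes. The 3 with the largest log2 rise were Skp2 (3.13), part of the ligase that marks p27 for degradation, Cdc6 (1.93), which loads the helicase, and E2f1 (1.81); Foxo1 was the lower one (-0.87).

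The DC 22 h libraries stood far apart in these genes, replicate 2 highest and replicate 3 lowest. Skp2 was at 5.12, 9.84 and 2.05 CPM, over 0.734, 1.08 and 0 CPM at rest. Cdc6 was at 22.3, 39.9 and 7.09 CPM, over 6.17, 6.33 and 5.59 CPM, and E2f1 at 36.2, 66.0 and 13.4 CPM, over 9.84, 12.7 and 10.5 CPM. Replicate 3 lay near rest for Cdc6 and E2f1. Without DC 22 h replicate 2 the log2 differences were 2.49 for Skp2 (edgeR adjusted p = 0.169), 1.30 for Cdc6 (0.144) and 1.19 for E2f1 (0.161), and 2 of the 10 calls passed. Each of these 3 calls was also lost without DC 22 h replicate 1 or any single unstimulated library, Skp2 moving to 3.74 without unstimulated replicate 2.

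From 8 h to 22 h, 5 of 64 passed higher and 0 lower with each stimulus, 7.81% beside 1.12% of all genes for immunofilaments and 0.480% for dendritic cells. Leaving out 1 library kept from 1 (without IF 8 h replicate 3) to 5 of the 5 calls with immunofilaments. With dendritic cells it kept from 0 (without DC 8 h replicate 1) to 5 of 5, with 1 kept without DC 8 h replicate 2 and 2 without DC 8 h replicate 3 or DC 22 h replicates 1 or 2. With immunofilaments 2 were kept without IF 8 h replicates 1 or 2 or IF 22 h replicates 2 or 3. With immunofilaments they were led by E2f1 (3.43), Cdc6 (2.59) and Mcm5 (1.75), and with dendritic cells by Cdc6 (3.69), Cdk1 (3.05), the mitotic kinase, and E2f1 (2.31). Cdk1 was at 89.6, 200.2 and 31.8 CPM at DC 22 h and 13.6, 12.0 and 13.2 CPM at DC 8 h; the lowest DC 22 h library lay inside the resting range of 21.4 to 39.4 CPM. Without DC 22 h replicate 2 the rise from 8 h was 2.25 for Cdk1 and 3.06 for Cdc6 (edgeR adjusted p = 0.0135 for both), and the difference for E2f1 was 1.70 (0.157). The Cdk1 call was lost without DC 8 h replicates 1 (0.0525) or 2 (0.0579), that of Cdc6 without DC 8 h replicate 1 (0.0525), and that of E2f1 without any library but DC 22 h replicate 3. With immunofilaments E2f1 was at 4.15 without IF 8 h replicate 1 (adjusted p = 0.0296), its call was lost without IF 8 h replicate 3 (0.0560), and those of Cdc6 and Mcm5 were lost without any library but IF 22 h replicate 1. The median of the 11 origin licensing genes was 1.26 with immunofilaments and 1.27 with dendritic cells, beside -0.01 and 0.00 for all genes. In the fit without IF 22 h replicates 2 and 3, where 1 library stands for IF 22 h, the median of the origin licensing genes was 0.93 from IF 8 h, with 11 of 11 above 0, and 0.44 from rest (0.91 with all libraries), with 10 of 11 above 0. None of the pathway genes passed there, which at 1 library says nothing about stability. Direct comparisons of the stimuli called 0 of 64 at 8 h and at 22 h, and the interaction called 0 of 64, in edgeR. Among upstream regulators, Myc and Klf2, named after their values were seen, did not pass in any comparison.

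**Figure D4:**
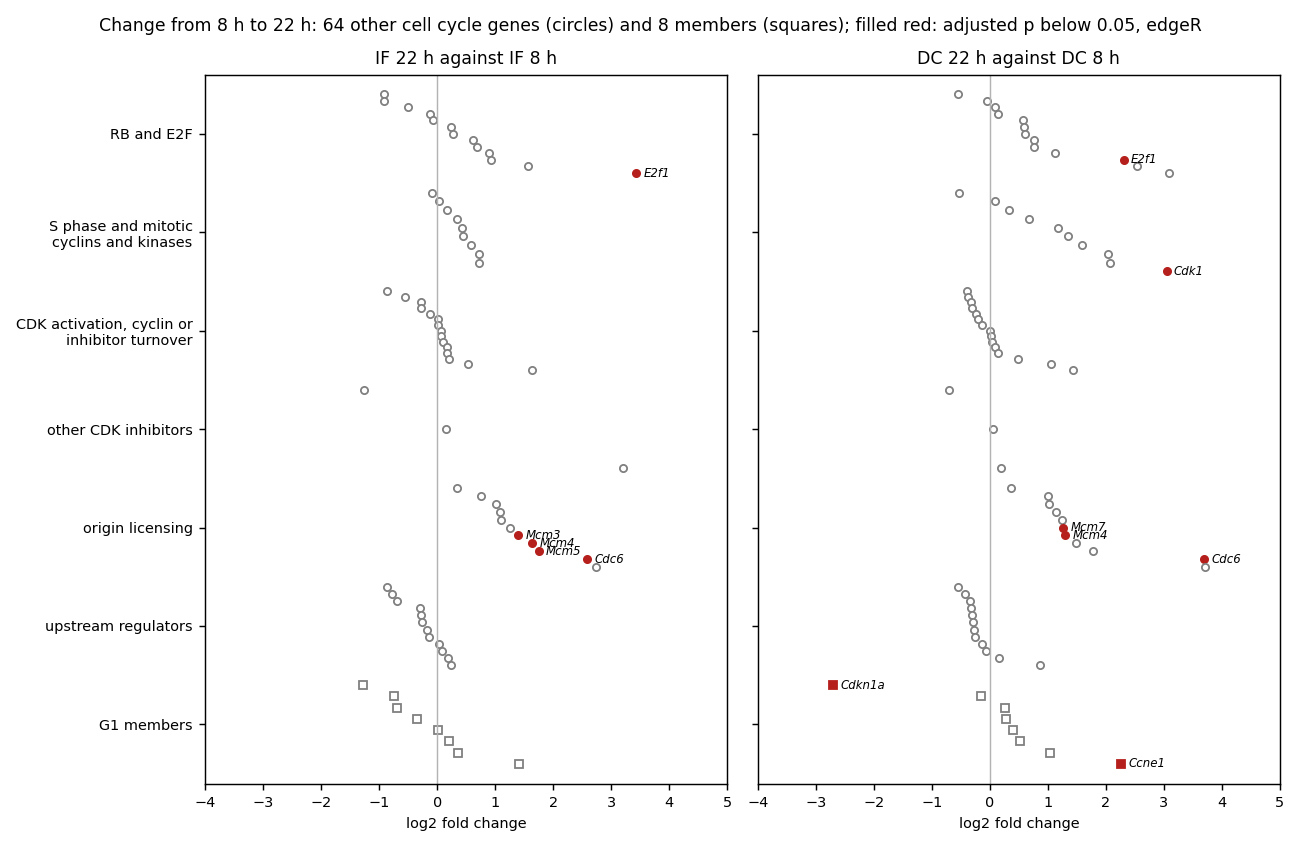
Log2 fold change from 8 h to 22 h (x axis) of 64 pathway genes in 6 lists (circles) and 8 members (squares), for immunofilaments (left) and dendritic cells (right); filled red symbols with names have an edgeR adjusted p below 0.05. The origin licensing genes lie to the right of 0 in both panels, while Cdkn1a lies at -2.70 with dendritic cells.

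For each tested member, the 2 genes with the most similar pattern were sought among 6947 genes with a mean of at least 10 CPM, by Pearson r of log2 CPM over the 15 libraries. These values describe libraries that share groups and depth, so no p is given. Ccne1 was most like Chaf1b (0.96), a subunit of the chromatin assembly factor that acts at replication forks, and Rfc5 (0.93), a subunit of the clamp loader. Cdk4 was most like Ung (0.92), the uracil-DNA glycosylase, and Chchd10 (0.92). Ccnd2 was most like Prmt5 (0.91), an arginine methyltransferase, and Sfxn1 (0.89), a mitochondrial serine transporter. Ccnd3 paired with Map2k1 (0.89), the kinase MEK1, and Park7 (0.89), and Cdkn1a with Elp5 (0.90) and Zmiz2 (0.89). Cdkn1b paired with Zer1 (0.89) and Dock2 (0.89), Cdk6 with Rars2 (0.87) and Gstz1 (0.84), and Ccnd1 with Tmem173 (0.87), which encodes STING, and Ostf1 (0.85). Cdkn2c had lower values, 0.76 with Minpp1 and 0.74 with Ubash3b. Among the members themselves, Ccnd1 and Ccnd3 had an r of 0.76, and Ccnd2 and Cdkn1b an r of -0.71.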

How the data were processed

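The deposited files hold raw whole-number read counts per gene for each of 15 libraries, 17493 genes each; BWA and mm10 are named in the submitters' processing notes, per the labels, and version, annotation, strand and molecular identifier use are not given in the sources used here. Counts were tested as deposited with edgeR 4.0.16 in R 4.3.3. Genes were kept by filterByExpr (minimum count 10, minimum total 15), leaving 10831, and libraries were scaled by trimmed means. One quasi-likelihood model of 15 libraries with 5 group means gave 9 comparisons. P-values were adjusted by Benjamini-Hochberg over all genes tested, with a threshold of 0.05. SE is the log2 fold change over the root of F. A member without reads in a group was set against a floor of 3 counts. Members and lists were chosen with earlier results of these data known. Of pathway genes, up to 3 with the highest and 3 with the lowest called log2 fold change were named per comparison. Alternatives were DESeq2 1.42.0, other scaling, no filter, smaller fits, a replicate block and left-out libraries. The code was tested on simulated counts. Of same-numbered libraries, the 3 pairs of DC 8 h and DC 22 h each deviated together from their group means (r 0.116, 0.399 and 0.238). Between these 2 groups, pairs with different numbers reached 0.117, above the replicate 1 pair. Across other groups they reached 0.207 (IF 22 h replicate 3 with DC 22 h replicate 2). Neither the labels nor these values show that the numbers pair libraries. Loci and overlaps come from GENCODE (GRCm38), and promoters from RefSeq (GRCm38.p6, 7 of 10 members matched). Marker lists for B, CD4 T, NK, myeloid and neutrophil cells were also measured: summed levels reached 42.3 CPM for B cells, 10.3 for CD4 T cells, 720 for NK cells (by group in the text), 3.22 for macrophages and 9.08 for neutrophils.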

Additional observations from a re-analysis of the deposited data

How the results depend on the processing

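Of 118 recomputed counts of members past the threshold, 82 stayed within 1.5 times the main count and 36 did not. Of 1057 recomputed log2 fold changes of single members, 988 kept their side of the threshold, 45 lost a call and 24 gained one. Of the 988, 59 changed sign, with neither value past the threshold; no called value changed sign. Ccnd3 at IF 8 h, and Cdkn1a and Cdkn2c at DC 8 h, against rest, passed in all 12 alternatives each. Depth limits Ccnd1 and Ccne2.

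Scaling by library size alone called 0 members for IF 22 h and 2 for DC 22 h against rest, and 1 between stimuli at 22 h. It split the calls over all genes into 849 higher and 264 lower at IF 8 h (329 and 511 in the main fit), 859 and 220 at DC 8 h (298 and 441), 621 and 217 at IF 22 h (285 and 373), 1354 and 232 at DC 22 h (369 and 471), and 88 and 180 between stimuli at 22 h (133 and 130). Without the low-count filter 2 members passed for DC 22 h against rest, 2 for IF 22 h against IF 8 h and 3 between stimuli at 22 h. DESeq2 called 1 member between stimuli at 22 h and 1 for the interaction. A fit of the groups compared alone called 0 for DC 22 h against rest, 0 for DC 22 h against DC 8 h and 1 between stimuli at 8 h. Without IF 22 h replicates 2 and 3 together, 0 passed for IF 22 h against rest. For each, the cause was not tested, beyond the fewer samples in the last 2.

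Leaving out 1 library gave 1 to 2 members for IF 8 h, 2 to 3 for DC 8 h, 0 to 1 for IF 22 h and 0 to 2 for DC 22 h against rest, 0 to 0 for IF 22 h against IF 8 h, 0 to 3 for DC 22 h against DC 8 h, 0 to 1 between stimuli at 8 h, 0 to 0 at 22 h and 0 to 1 for the interaction.

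Over all genes, the main counts were 840, 739, 658 and 840 against rest (IF 8 h, DC 8 h, IF 22 h, DC 22 h), 121 and 52 between times (IF, DC), 72 and 263 between stimuli (8 h, 22 h) and 0 for the interaction. DESeq2 gave, in that order, 1269, 1175, 1066, 1267, 366, 210, 195, 563 and 40. The unfiltered fit gave 1129 (DC 8 h), 1101 (IF 22 h), 1278 (DC 22 h), 502, 251, 215, 706 and 155. Groups alone gave 1299 (IF 8 h), 993 (IF 22 h), 517 (DC 22 h), 0 (DC times), 47 and 70 (stimuli). Library size gave 1586 for DC 22 h. Without IF 22 h replicates 2 and 3 together the counts were 99 (rest), 0 (IF 8 h) and 8 (DC 22 h). Leaving out 1 library gave 419 to 573, 404 to 665, 283 to 947, 454 to 984, 24 to 541, 1 to 138, 27 to 52, 90 to 759 and 0 to 279.

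The shared replicate numbers were not shown to pair libraries. Deviations of the 30 pairs with the same number had r from -0.19 to 0.40, 4 of them over 0.1 (3 of these the DC pairs). Of the 15 libraries, 8 correlated best with their own number. With the number as a block in the edgeR fit, 2 members passed for IF 8 h against rest, Ccnd1 being lost (adjusted p = 0.0655). The other 8 member counts were 2, 1, 1, 0, 2, 2, 0 and 0, as in the main fit, and the block changed no other member call. This block gives each number 1 effect shared by all 5 groups, so it does not model a pairing of the DC groups alone.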

Other observations

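Replicate 2 of the DC groups held the extreme value of several members at both times. At 8 h and at 22 h it was the highest of its group for Ccnd2, Cdk4, Cdk6 and Ccne1 and the lowest for Cdkn1b. Cdkn1b was 217 CPM in DC 8 h replicate 2, against 411 and 401 CPM, and 202 CPM in DC 22 h replicate 2, against 298 and 429 CPM. At 8 h the same library was the highest for Cdkn1a and the lowest for Cdkn2c. Over all genes tested, the deviations of these 2 libraries from their group means had a Pearson r of 0.40, the highest of the 30 pairs of libraries that share a number across groups. The same correlation was 0.116 for the DC libraries of replicate 1 and 0.238 for those of replicate 3; the cause was not tested.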
